A study of Mus musculus with 2 samples.

Results

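The BCL2 family was followed in the bone-resident cells of mice given doxorubicin (Doxo) or vehicle (Veh), through 10 listed genes out of the 21905 genes in the files. All 10 were found in both libraries. They are the survival members Mcl1, Bcl2, Bcl2l1 and Bcl2l2 and the death members Bax, Bak1, Bcl2l11, Bid, Bad and Bnip3. The genes were taken by name, and the cells were grouped by marker genes of CAR (Cxcl12-abundant reticular) cells, fibroblasts, osteoblasts, chondrocytes and endothelial cells. The listed genes were left out of the variable genes that the clusters rest on. The question was how the survival and death members are balanced in each cell type, and how that balance compares between Veh and Doxo.

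Each condition was 1 library of 12-week-old female mice, from femurs and tibias. Doxo was given at 10 mg/kg, and bones were taken after 96 h. Bones were freed of muscle, digested with collagenase, and depleted of CD45+, CD71+ and Ter119+ cells. The labels also name CD31 in the depletion, but endothelial-like cells were still present. The number of mice behind each library is not given in the sources used here. Messenger RNA was counted by droplet-based 3′ sequencing as UMIs (unique molecular identifiers, 1 per captured transcript), in 2488 cells per library. In all, 24859695 UMIs were counted in Veh (median 8693 per cell) and 20792012 in Doxo (median 7347.5). With 1 library per condition there is no replicate spread and no test. All intervals below are 95% intervals for counting error alone, and the treatment cannot be told apart from other differences between the libraries.

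In the mitochondrial route of cell death, BAX and BAK open pores in the outer mitochondrial membrane, cytochrome c leaves, and caspases are switched on. MCL1, BCL2, BCL-XL (from Bcl2l1) and BCL-W (from Bcl2l2) hold this in check by binding BAX, BAK and the BH3-only proteins. BIM (from Bcl2l11), BID and BAD are BH3-only proteins, which start the process or release its brakes. BNIP3 has a BH3-like stretch and is best known as a mitophagy receptor that is induced when oxygen is low. It stands with the death members here because the list does, and the balance without it is given in the closing section. MCL1 is a short-lived protein whose gene is quickly induced by growth factors and cytokines. Doxorubicin is an anthracycline that damages DNA and activates p53, for which Bax is a known target. Senescent cells are known for relying on survival members, which some senolytic drugs block.

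The 10 genes lie on 8 chromosomes of GRCm38 (GENCODE M21). Among the survival members, Mcl1 (ENSMUSG00000038612) is at chr3:95658788-95663176, Bcl2 (ENSMUSG00000057329) at chr1:106538178-106714274, Bcl2l1 (ENSMUSG00000007659) at chr2:152780668-152831728 and Bcl2l2 (ENSMUSG00000089682) at chr14:54883377-54888234. The pore formers are Bax (ENSMUSG00000003873) at chr7:45461697-45466898 and Bak1 (ENSMUSG00000057789) at chr17:27019810-27029009. The BH3-only genes are Bcl2l11 (ENSMUSG00000027381) at chr2:128126038-128162547, Bid (ENSMUSG00000004446) at chr6:120891930-120916853 and Bad (ENSMUSG00000024959) at chr19:6941861-6951899. Bnip3 (ENSMUSG00000078566) is at chr7:138890836-138909519. Bcl2, Bak1, Bid, Bad and Bnip3 overlap a gene on the other strand, which for Bid is the family member Bcl2l13. Whether strand was used in counting is not given in the sources used here, so reads of these pairs may not be fully apart. Bcl2l2 and Bax also share their strand with an overlapping predicted gene, and these had 0 UMIs.

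The promoters of 3 members are shown because the results turn on them. They are the 250 bases before the start of Mcl1, Bax and Bnip3 in RefSeq (GRCm38.p6), read 5′ to 3′ on the strand of the gene. All 10 members had an entry in the table. For Mcl1, at chr3:95658471-95658720 on the plus strand, capitals mark the 3 matches of the ETS core GGAAG. ETS factors act in growth factor responses. This motif is in 64.1% of all 32851 promoters of the table when both strands are searched. It is also in a window of every other member, with 6 matches for Bcl2l2 and 4 for Bak1.
Mcl1: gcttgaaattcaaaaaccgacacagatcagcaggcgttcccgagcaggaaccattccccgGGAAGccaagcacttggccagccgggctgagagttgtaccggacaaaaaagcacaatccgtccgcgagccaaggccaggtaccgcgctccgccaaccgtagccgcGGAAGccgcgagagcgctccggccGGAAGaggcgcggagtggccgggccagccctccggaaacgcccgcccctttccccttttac
For Bax, at chr7:45466899-45467148 on the minus strand, capitals mark the match of the p53 motif (a single decamer of the p53 response element), which matches on both strands. Such a match is in 7.13% of all promoters, and Bax is the only member with one in this window.
Bax: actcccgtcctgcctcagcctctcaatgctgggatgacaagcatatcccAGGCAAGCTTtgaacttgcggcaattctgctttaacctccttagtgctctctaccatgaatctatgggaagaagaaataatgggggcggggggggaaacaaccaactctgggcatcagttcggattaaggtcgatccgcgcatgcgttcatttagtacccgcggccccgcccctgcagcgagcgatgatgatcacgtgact
For Bnip3, at chr7:138909507-138909756 on the minus strand, capitals mark 5 matches of the hypoxia response core, ACGTG or GCGTG on either strand, of which 2 overlap in one palindrome. This core is in 38.6% of all promoters and also in windows of Bcl2l1, Bcl2l11, Bax and Bad.
Bnip3: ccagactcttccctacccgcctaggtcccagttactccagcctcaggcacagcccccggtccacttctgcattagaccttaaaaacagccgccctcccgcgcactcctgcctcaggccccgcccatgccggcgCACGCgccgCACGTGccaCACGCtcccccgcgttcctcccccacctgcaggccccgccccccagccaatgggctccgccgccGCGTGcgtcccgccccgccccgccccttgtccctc
A match describes the letters only. The CArG box, bound by the serum response factor, had no match in the windows of the members and is in 1.47% of all promoters. The CRE core TGACG, of CREB family factors, matched only in the window of Bcl2 and is in 17.8% of all promoters.

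Clustering gave 6 named classes, each named "-like" from markers that stood above the other cells. The CAR-like cells (369 in Veh, 429 in Doxo) carried 8 of 8 CAR markers. For bone and cartilage fibroblast-like cells (1108 and 1358) it was 6 of 8, and for arteriolar and endosteal fibroblast-like cells (413 and 247) 7 of 8. The osteoblast-like cells (207 and 125) carried 6 of 8 markers, the chondrocyte-like cells (244 and 205) 8 of 8 and the endothelial-like cells (103 and 69) 8 of 8. A cluster of 44 Veh and 55 Doxo cells stayed unnamed. It had 2 markers of bone and cartilage fibroblasts (Fn1 and Prg4) and 2 of osteoclasts (Acp5 and Ctsk). Median depth differed between classes, from 2930 UMIs per cell in osteoblast-like Doxo cells to 19519.5 in chondrocyte-like Veh cells, so levels are given as CPM (UMIs of the gene per 1000000 UMIs of the class). Because each transcript is counted once at its 3′ end, CPM was not divided by length when genes were summed or set side by side. No class is known to lack these genes, so a background share from free RNA could not be given. The libraries shared 4 cell barcodes.

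Mcl1 was the most abundant member in every named class of both libraries except CAR-like Doxo cells, where Bax was at 158 CPM and Mcl1 at 140 CPM with overlapping intervals. Its level in Veh was 652 CPM in endothelial-like cells (457 UMIs, interval 594 to 715). It was 344 CPM in bone and cartilage fibroblast-like, 286 in chondrocyte-like, 257 in arteriolar and endosteal fibroblast-like, 247 in CAR-like and 106 in osteoblast-like cells. Chondrocyte-like, arteriolar and endosteal fibroblast-like and CAR-like cells had overlapping intervals with their neighbours in this order, and the other steps did not overlap. In Doxo the order was the same, from 711 CPM in endothelial-like to 74.0 CPM in osteoblast-like cells, and no neighbouring intervals overlapped. Thus the class with most Mcl1 had 6.14 times the level of the class with least in Veh and 9.62 times in Doxo.

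Bcl2, the founding survival gene, had another order. It was highest in bone and cartilage fibroblast-like cells, at 80.5 CPM in Veh and 81.4 CPM in Doxo, and lowest in osteoblast-like cells, at 8.65 and 16.4 CPM from 7 and 8 UMIs. Endothelial-like cells (61.4 CPM in Veh) and CAR-like cells (51.5 CPM) followed the fibroblasts with overlapping intervals. Between CAR-like and chondrocyte-like cells, at 22.2 CPM in Veh, the intervals were apart. The order of the 6 classes was the same in Doxo. Bcl2l1 and Bcl2l2 were low everywhere, between 4.94 and 28.5 CPM for Bcl2l1 and between 6.18 and 31.4 CPM for Bcl2l2. For both genes, the intervals of all neighbouring classes overlapped in both libraries, while some classes farther apart in the order did not. In Veh, for example, Bcl2l1 was at 4.94 CPM in osteoblast-like cells (interval 1.35 to 12.7), below the 18.2 CPM of bone and cartilage fibroblast-like cells (15.8 to 20.9).

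**Figure D1:**
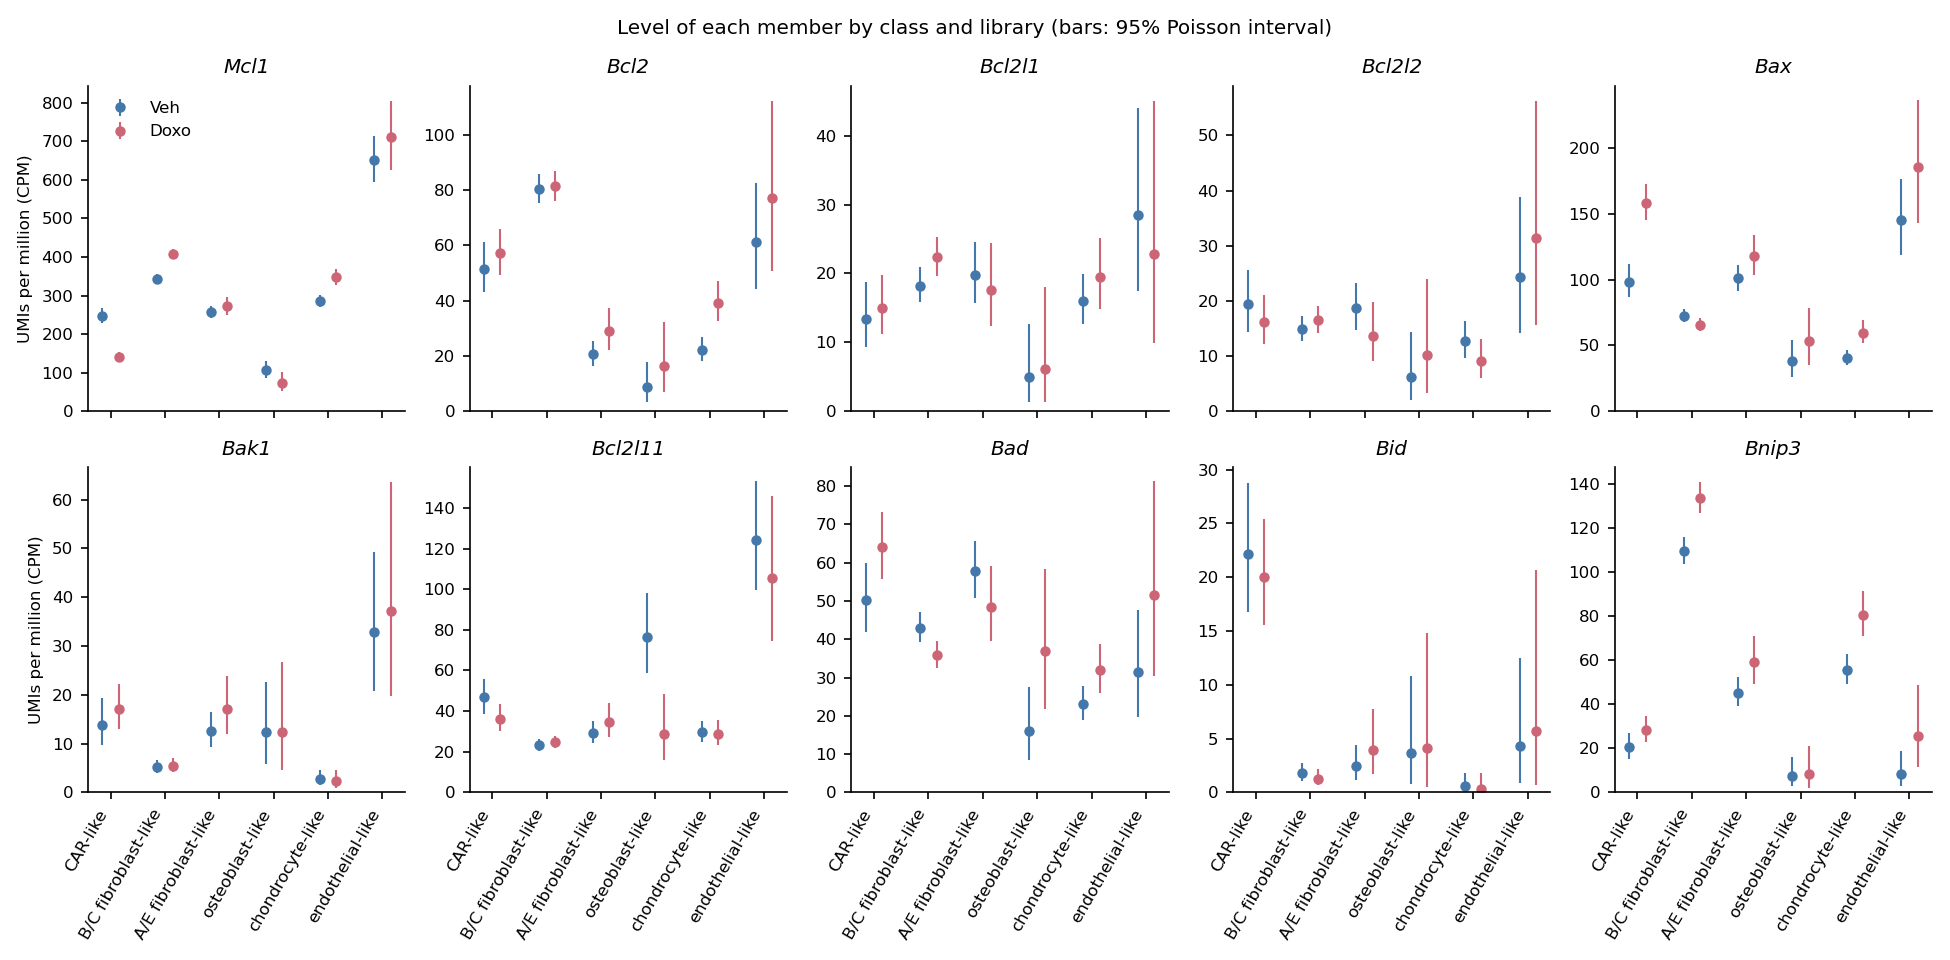
CPM of each member (y axis) in the 6 named classes (x axis), with Veh in blue and Doxo in red. B/C fibroblast-like stands for bone and cartilage fibroblast-like and A/E for arteriolar and endosteal fibroblast-like cells. Points are sums over the cells of 1 library with 95% Poisson intervals, and each panel has its own scale. Mcl1 lay at 247 CPM in CAR-like Veh cells and at 140 CPM in CAR-like Doxo cells, Bid stood above its level in the other classes in CAR-like cells, and Bnip3 was highest in bone and cartilage fibroblast-like cells.

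Among the pore formers, Bax was above Bak1 in every named class. Bax in Veh ran from 146 CPM in endothelial-like cells to 38.3 CPM in osteoblast-like cells, with arteriolar and endosteal fibroblast-like (101 CPM) and CAR-like cells (98.6 CPM) side by side. In Doxo, CAR-like cells (158 CPM) stood above arteriolar and endosteal fibroblast-like cells (118 CPM), with intervals apart, and overlapped endothelial-like cells (186 CPM). Bak1 was at 32.8 CPM in endothelial-like Veh cells and at 2.70 CPM in chondrocyte-like Veh cells. Its level was also low, at 5.15 CPM, in bone and cartilage fibroblast-like Veh cells, where 58 UMIs were counted against 818 of Bax.

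The BH3-only genes differed in where they were found. Bcl2l11 was highest in endothelial-like cells, at 124 CPM in Veh (interval 99.4 to 153) and 106 CPM in Doxo, and was next in osteoblast-like Veh cells at 76.6 CPM (58.7 to 98.2). Bad ranged from 16.1 to 57.9 CPM in Veh, and all its neighbouring intervals overlapped, while some classes farther apart in the order did not. In Veh, for example, arteriolar and endosteal fibroblast-like cells had 57.9 CPM (50.8 to 65.7) and chondrocyte-like cells 23.1 CPM (19.0 to 27.8). Bid, the link from death receptors to mitochondria, was at 22.2 CPM in CAR-like Veh cells (56 UMIs, interval 16.7 to 28.8) and at 20.1 CPM in CAR-like Doxo cells (68 UMIs, 15.6 to 25.4). In the other 5 named classes it had between 0.623 and 4.28 CPM in Veh and between 0.325 and 5.71 CPM in Doxo, each from 20 UMIs or fewer. The Veh interval of CAR-like cells lay above those of the other classes. In Doxo it overlapped the interval of endothelial-like cells, which rested on 2 UMIs and reached 20.6 CPM.

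A UMI of Bid was found in 12.7% of CAR-like Veh cells and 13.3% of CAR-like Doxo cells, against 1.53% and 0.884% of bone and cartilage fibroblast-like cells. With each cell thinned to 2000 UMIs, the shares were 5.11% and 2.87% in CAR-like cells and 0.370% and 0.605% in bone and cartilage fibroblast-like cells. Chondrocyte-like cells, which were the deepest, had 0 of 238 Veh and 0 of 200 Doxo cells with a Bid UMI after thinning, with intervals up to 1.54% and 1.83%. The class with the highest median depth was not the one with most Bid, and the part of depth in the Bid values was not tested.

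Bnip3 followed yet another order. It was at 110 CPM in bone and cartilage fibroblast-like Veh cells, 55.7 CPM in chondrocyte-like, 45.3 CPM in arteriolar and endosteal fibroblast-like, 20.6 CPM in CAR-like, 8.56 CPM in endothelial-like and 7.41 CPM in osteoblast-like cells. The order was the same in Doxo, with 133 CPM at the top and 8.22 CPM at the bottom. The intervals of the lowest 3 classes overlapped from neighbour to neighbour in both libraries, and those of chondrocyte-like and arteriolar and endosteal fibroblast-like cells in Veh only. In bone and cartilage fibroblast-like cells Bnip3 gave 42.9% of the death UMIs in Veh and 50.1% in Doxo. In endothelial-like cells it gave 2.47% and 6.25%. Low-oxygen genes other than Bnip3, a list of 14 that includes Pgk1, Ldha and Vegfa, summed to 1918 CPM in bone and cartilage fibroblast-like Veh cells. In the other Veh cells they summed to 1436 CPM in CAR-like, 1431 in endothelial-like and 1327 in chondrocyte-like cells. The sums were 1231 CPM in arteriolar and endosteal fibroblast-like and 741 CPM in osteoblast-like cells. Between the highest and the lowest class, this order was not that of Bnip3.

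The sums of the survival and death members were made of few genes. Mcl1 gave between 74.6% and 85.1% of the survival UMIs of the named classes in Veh, and between 61.3% and 84.4% in Doxo. Bax gave between 24.8% and 42.0% of the death UMIs in Veh and between 24.7% and 48.9% in Doxo. The death sum of bone and cartilage fibroblasts was mostly Bnip3 and Bax, that of endothelial-like cells Bax and Bcl2l11, and that of CAR-like cells Bax, Bad and Bcl2l11.

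**Figure D2:**
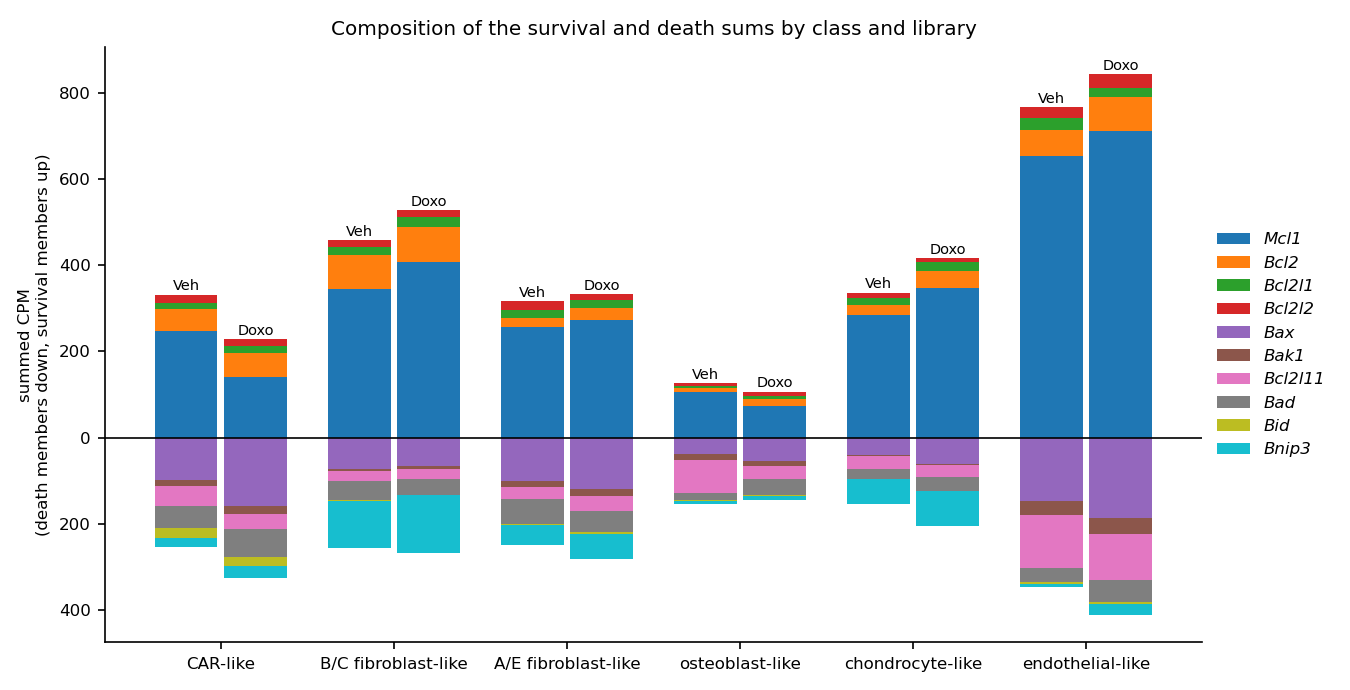
Stacked bars of summed CPM (y axis) for the 4 survival members, drawn upwards, and the 6 death members, drawn downwards, in the 6 named classes (x axis), with Veh on the left and Doxo on the right of each pair. B/C and A/E stand for bone and cartilage and for arteriolar and endosteal. In CAR-like cells the survival sum was 332 CPM in Veh and 229 CPM in Doxo, and the death sum 252 and 324 CPM.

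Neither protein nor cell survival was measured. The balance is the log2 ratio of survival UMIs to death UMIs, thus of messenger RNA, so that 0 means equal counts. In Veh, it was highest in chondrocyte-like cells (1620 survival and 733 death UMIs, balance 1.14, interval 1.02 to 1.27) and endothelial-like cells (537 and 243 UMIs, balance 1.14, 0.92 to 1.37). It was 0.84 in bone and cartilage fibroblast-like cells (0.77 to 0.91), 0.40 in CAR-like cells (0.25 to 0.55) and 0.35 in arteriolar and endosteal fibroblast-like cells (0.23 to 0.47). Osteoblast-like cells had 102 survival and 125 death UMIs, a balance of -0.29 whose interval, -0.69 to 0.10, held 0. Family genes outside the list were not counted in these sums. Of them, Bok, a BAX-like gene, was at 126 CPM in endothelial-like Veh cells. In the other named Veh classes Bok had between 3.53 and 25.4 CPM, so a balance with more death genes could order the classes otherwise. Where the balance was above 0, its sign rested on Mcl1. Without it, death UMIs outnumbered survival UMIs in every class of both libraries, with a balance between -1.15 and -2.97.

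In Doxo, CAR-like cells were on the other side of 0. They had 775 survival and 1099 death UMIs, a balance of -0.50 (interval -0.64 to -0.37), where Veh had 838 and 637. The difference in balance, Doxo minus Veh, was -0.90 (interval -1.10 to -0.70), the largest among the 6 named classes. Bone and cartilage fibroblast-like cells differed by 0.14 (0.05 to 0.24), with the higher balance in Doxo. The intervals of the other 4 held 0, at -0.11 for arteriolar and endosteal fibroblast-like (-0.31 to 0.10), -0.14 for osteoblast-like (-0.81 to 0.54), -0.12 for chondrocyte-like (-0.31 to 0.07) and -0.11 for endothelial-like cells (-0.48 to 0.26). In the osteoblast-like and endothelial-like cells these intervals are wide and leave room for differences in either direction.

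**Figure D3:**
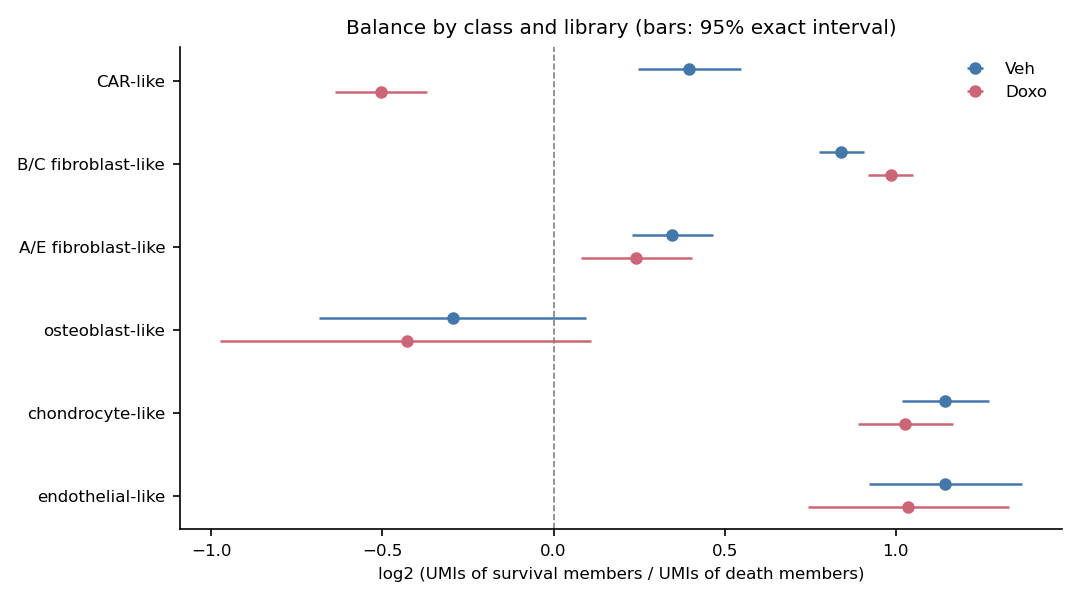
Balance of survival against death members, as the log2 ratio of their UMIs (x axis), in the 6 named classes (y axis), with Veh in blue, Doxo in red and 95% exact intervals. B/C and A/E stand for bone and cartilage and for arteriolar and endosteal. CAR-like cells lay at 0.40 in Veh and -0.50 in Doxo, on opposite sides of the dashed line at equal counts, while the values of Veh and Doxo differed by at most 0.14 in each of the other classes.

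Both sums differed between the libraries in CAR-like cells. The survival sum was lower in Doxo by a log2 ratio of -0.54 (interval -0.68 to -0.39), and the death sum higher by 0.36 (0.22 to 0.51). Mcl1 was counted 625 times in CAR-like Veh cells, 247 CPM (228 to 268), and 475 times in CAR-like Doxo cells, 140 CPM (128 to 153). The Doxo level was the lower one and the intervals did not overlap, with a log2 ratio of -0.82 (-0.995 to -0.646). A UMI of Mcl1 was found in 60.4% of the CAR-like Veh cells and 50.3% of the Doxo cells, and in 33.0% and 21.3% after thinning. Bax was counted 249 times in Veh, 98.6 CPM (86.7 to 112), and 537 times in Doxo, 158 CPM (145 to 172). Doxo was the higher one, again with intervals apart, at a log2 ratio of 0.68 (0.47 to 0.91). After thinning, 17.0% of CAR-like Veh cells and 24.9% of Doxo cells held a UMI of Bax.

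The other 8 members were within a log2 ratio of 0.5 in either direction in CAR-like cells. Bad was at 50.3 CPM in Veh and 64.0 CPM in Doxo, with a ratio of 0.35 (interval 0.03 to 0.68). Bcl2 (0.15), Bcl2l1 (0.15), Bak1 (0.30) and Bnip3 (0.45) had ratios above 0, and Bcl2l2 (-0.26), Bid (-0.15) and Bcl2l11 (-0.36) below 0, with intervals that held 0. So 1 of the 10 members was past a log2 ratio of 0.5 upwards and 1 downwards. Of all 11517 genes with at least 20 UMIs in this class, 16.5% were as far up and 12.1% as far down. These counts of members are thus near the share among all genes. Of these genes, 5.05% had a lower ratio than Mcl1 and 89.9% a lower ratio than Bax, and the median of all was 0.06.

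Mcl1 was not spread evenly over the CAR-like cells. They were clustered alone, and the resolution was raised until at least 3 sub-clusters appeared, which was at 0.15. This gave 3 sub-clusters, a number that follows from this rule. The second, led by Il6, Ccl7, Ccl2 and Cxcl1, genes of inflammatory signals, held 84 Veh cells and 7 Doxo cells. In its Veh cells Mcl1 was at 474 CPM (353 UMIs, interval 426 to 527), against 135 CPM (212 UMIs, 117 to 154) in the 269 Veh cells of the sub-cluster that held most CAR-like cells. In the 397 Doxo cells of that largest sub-cluster Mcl1 was at 118 CPM (340 UMIs, 106 to 131), so that there the ratio of Doxo to Veh was -0.19 (-0.44 to 0.06). The clusters were made from the same cells, and these levels are a description.

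Bax was higher in Doxo within the largest sub-cluster too, with 174 UMIs in Veh, 110 CPM, and 456 in Doxo, 158 CPM, a ratio of 0.51 (0.26 to 0.78). Bcl2l11 and Bid were lower there in Doxo, at -0.65 (-1.12 to -0.16) and -0.58 (-1.12 to -0.02). The balance of this sub-cluster was -0.36 in Veh (-0.57 to -0.15) and -0.62 in Doxo (-0.77 to -0.47). The inflammatory sub-cluster had a balance of 1.5 in Veh (1.22 to 1.78). When it was left out of the CAR-like cells, the balance in Veh was -0.21, on the same side of 0 as in Doxo, the difference was -0.33 and not -0.90, and the Mcl1 ratio was -0.22, no longer past 0.5, while the Bax ratio was 0.59. The third sub-cluster, led by Msmp, Acan and Hapln1, genes of cartilage and fibroblasts, had 16 Veh and 25 Doxo cells, with Mcl1 at 291 and 220 CPM and a balance of 0.76 and -0.08.

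Early-response genes differed between these cells too, but not always with Mcl1. The list holds 16 genes such as Fos, Jun, Egr1 and Atf3, which are also induced when tissue is dissociated. It summed to 29314 CPM in the inflammatory sub-cluster of Veh and to 12525 CPM in the largest one, which had 13305 CPM in Doxo. Over all CAR-like cells it summed to 17254 CPM in Veh and 14514 CPM in Doxo, and 7 of the 16 genes were past a log2 ratio of 0.5 downwards and 0 upwards. In the 6 named classes, the values of Mcl1 and of this list were above Veh in Doxo in the same 4 and below it in the same 2. The interval of Mcl1, which covers counting error alone, held 0 in some of these classes. These were arteriolar and endosteal fibroblast-like (0.09, -0.06 to 0.24), endothelial-like (0.13, -0.10 to 0.35) and osteoblast-like cells (-0.51, -1.13 to 0.05). The list was lower in Doxo in osteoblast-like cells (12474 and 9384 CPM) as well, and higher in bone and cartilage fibroblast-like (13447 and 20074 CPM), arteriolar and endosteal fibroblast-like (14310 and 19556), chondrocyte-like (16201 and 32141) and endothelial-like cells (15246 and 18765). The part of this list in the Mcl1 values was not tested.

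**Figure D4:**
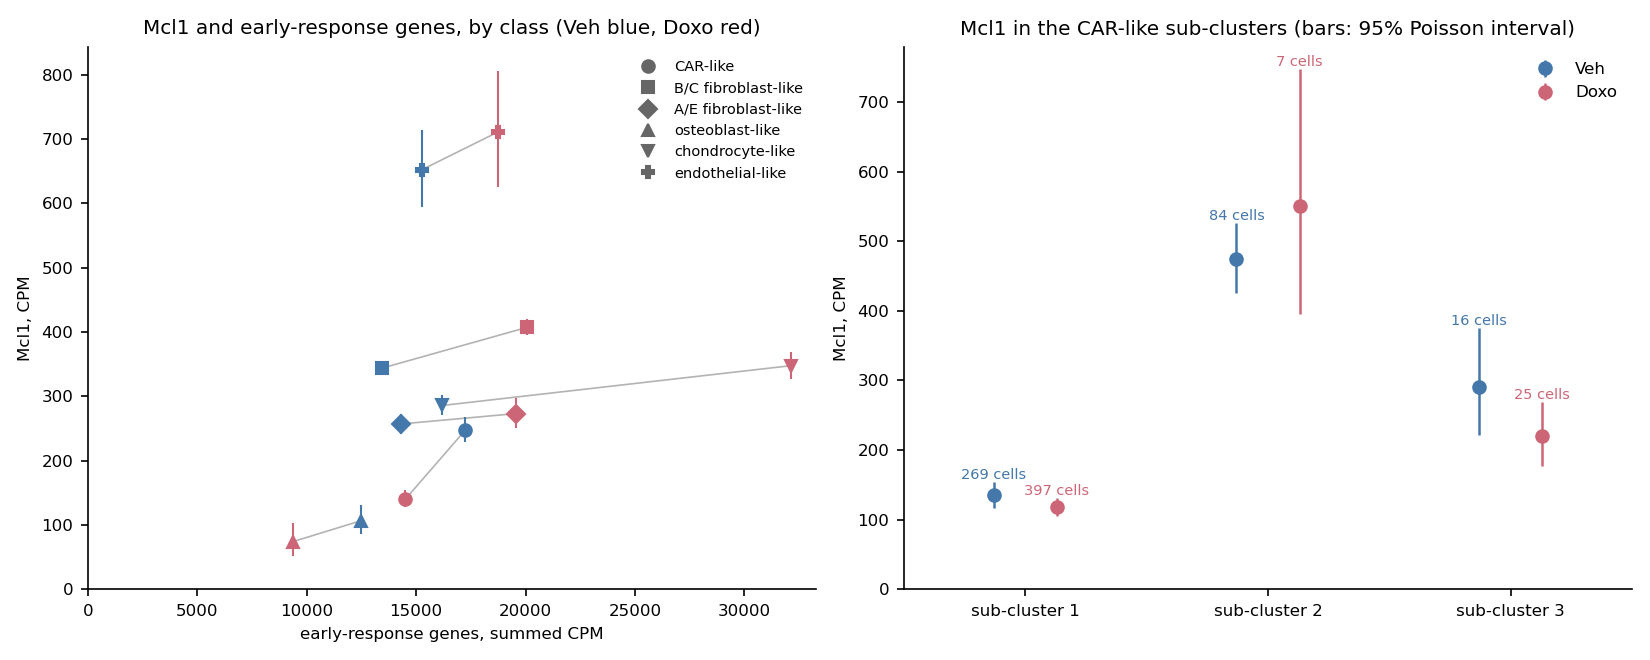
On the left, Mcl1 in CPM (y axis) against the summed CPM of 16 early-response genes (x axis) in each named class, with Veh in blue, Doxo in red, 95% Poisson intervals, and a grey line joining the 2 libraries of a class. B/C and A/E stand for bone and cartilage and for arteriolar and endosteal. On the right, Mcl1 in CPM (y axis) in the 3 sub-clusters of CAR-like cells (x axis), with the number of cells at each point. Mcl1 in Veh was at 474 CPM in sub-cluster 2 and at 135 CPM in sub-cluster 1, and 84 Veh but 7 Doxo cells lay in sub-cluster 2.

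Other values also differed between the libraries of CAR-like cells. The median depth was 6231 UMIs per cell in Veh and 7324 in Doxo, and the median mitochondrial share 2.82% and 4.10%. Markers of erythroid cells summed to 381 CPM in Veh (6 of 6 found) and 7.67 CPM in Doxo (4 of 6). Of 8 immune markers 7 are in the files, and they summed to 501 CPM in Veh (7 found) and 59.3 CPM in Doxo (6 found, with Cd79a at 0). Osteoblast markers summed to 8548 CPM in Veh and 3363 CPM in Doxo, with 8 of 8 found in each. Pericyte and smooth muscle markers summed to 164 and 343 CPM, and endothelial markers to 39.6 CPM (6 of 8 found, with Kdr and Tie1 at 0) and 16.8 CPM (8 of 8). CAR markers summed to 38578 and 46390 CPM. The part of these differences in the member values was not tested.

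In bone and cartilage fibroblast-like cells, the class with most UMIs, 0 of 10 members were past a log2 ratio of 0.5 in either direction, where 5.57% of all 13110 genes were past it upwards and 12% downwards. Mcl1 was counted 3870 times in Veh, 344 CPM (interval 333 to 355), and 4407 times in Doxo, 407 CPM (395 to 419), a ratio of 0.24 (0.18 to 0.31). Doxo was the higher one, opposite to the CAR-like cells. Bnip3 was at 110 CPM in Veh (104 to 116) and 133 CPM in Doxo (127 to 141), a ratio of 0.28 (0.17 to 0.40). Bcl2l1 had a ratio of 0.30 (0.02 to 0.57) and Bad of -0.26 (-0.46 to -0.07). Bax was at 72.7 CPM in Veh and 65.9 CPM in Doxo, a ratio of -0.14 whose interval, -0.29 to 0.01, held 0. The median ratio of all genes in this class was -0.09. Immune markers summed to 466 CPM in Veh and 53.4 CPM in Doxo (7 found in each), and erythroid markers to 277 CPM (6 of 6) and 37.1 CPM (5 of 6).

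In arteriolar and endosteal fibroblast-like cells 0 of the 9 members with at least 20 UMIs were past 0.5 in either direction, against 9.72% of all 11174 genes upwards and 13% downwards. Mcl1 was at 257 CPM in Veh and 273 CPM in Doxo, a ratio of 0.09 (interval -0.06 to 0.24). Bnip3 was at 45.3 CPM in Veh and 59.3 CPM in Doxo, with a ratio of 0.39 (0.05 to 0.73) that lay above 0. Osteoblast markers summed to 9033 CPM in Veh and 5253 CPM in Doxo in this class (8 of 8 found in each), and erythroid markers to 129 CPM (6 of 6) and 14.2 CPM (3 of 6). The megakaryocyte markers Pf4 and Itga2b and the osteoclast markers Acp5 and Ctsk also stood above the other cells here. Megakaryocyte and platelet markers summed to 525 CPM in Veh and 234 CPM in Doxo, and osteoclast markers to 677 and 471 CPM. With 20 principal components, a megakaryocyte and platelet-like cluster of 10 Veh and 5 Doxo cells appeared. The part of such cells in the member values was not tested. Bcl2, at 20.6 and 28.9 CPM, had a ratio of 0.49 (-0.01 to 0.99), and Bax, at 101 and 118 CPM, one of 0.23 (-0.01 to 0.46).

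In chondrocyte-like cells 3 of 9 members were past 0.5 upwards and 0 downwards, against 18.3% and 14.1% of all 10767 genes. Bcl2 was counted 107 times in Veh, 22.2 CPM (interval 18.2 to 26.9), and 121 times in Doxo, 39.3 CPM (32.6 to 47.0). Doxo was higher with intervals apart, at a ratio of 0.82 (0.44 to 1.21). Bax was at 40.5 CPM in Veh and 59.8 CPM in Doxo, a ratio of 0.56 (0.26 to 0.86). Bnip3 was at 55.7 and 80.6 CPM, a ratio of 0.53 (0.28 to 0.79), but with every cell thinned to 2000 UMIs its ratio was -0.13. Mcl1 was at 286 and 348 CPM, with a ratio of 0.28 (0.17 to 0.40). Since the survival sum (log2 ratio 0.30) and the death sum (0.42) were both higher in Doxo, the balance differed by only -0.12. The early-response list had its largest difference in this class, with 14 of 16 genes past 0.5 upwards. The chondrocyte markers themselves summed to 40144 CPM in Veh and 27916 CPM in Doxo, and osteoblast markers to 13090 and 5047 CPM, with 8 of 8 found in each. Erythroid markers summed to 548 CPM in Veh (6 of 6 found) and 41.0 CPM in Doxo (4 of 6). The part of these differences in the member values was not tested.

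In osteoblast-like cells, 4 members had at least 20 UMIs. Bcl2l11 was counted 62 times in Veh, 76.6 CPM (interval 58.7 to 98.2), and 14 times in Doxo, 28.8 CPM (15.7 to 48.3). Doxo was lower with intervals apart, at a ratio of -1.37 (-2.37 to -0.56). Mcl1 was counted 86 and 36 times, 106 and 74.0 CPM, a ratio of -0.51 (-1.13 to 0.05). Bad was counted 13 and 18 times, 16.1 and 37.0 CPM, a ratio of 1.19 (0.09 to 2.35), which was -0.19 under a stricter cell filter that left 68 Veh and 31 Doxo cells. So 1 of 4 members was past 0.5 upwards and 2 downwards, against 16% and 23.2% of all 5615 genes of this class. Osteoblast markers summed to 205599 CPM in Veh and 247162 CPM in Doxo (8 of 8 found in each), and erythroid markers to 325 CPM (5 of 6) and 4.11 CPM (1 of 6).

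In endothelial-like cells 1 of 8 members was past 0.5 upwards and 0 downwards, against 17.9% and 14% of all 6634 genes. It was Bad, counted 22 times in Veh and 18 times in Doxo, 31.4 and 51.4 CPM, with a ratio of 0.72 whose interval, -0.27 to 1.68, held 0. Mcl1, at 652 CPM in Veh and 711 CPM in Doxo, had a ratio of 0.13 (-0.10 to 0.35). CAR markers summed to 826 CPM in Veh and 2577 CPM in Doxo in this class (8 of 8 found in each), and their part in its values was not tested. In the unnamed cluster, led by Clic5 and Tmem196, Bax was counted 56 times in Veh, 90.4 CPM (68.3 to 117), and 116 times in Doxo, 186 CPM (153 to 223), a ratio of 1.03 (0.57 to 1.52). There, 2 of 7 members, Bax and Bcl2l2 (0.65, -0.69 to 2.16), were past 0.5 upwards and 0 downwards, against 15.7% and 13.3% of all 6564 genes, and the balance was -0.07 in Veh (-0.36 to 0.22) and -0.60 in Doxo (-0.89 to -0.32), a difference of -0.53 (-0.94 to -0.13).

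**Figure D5:**
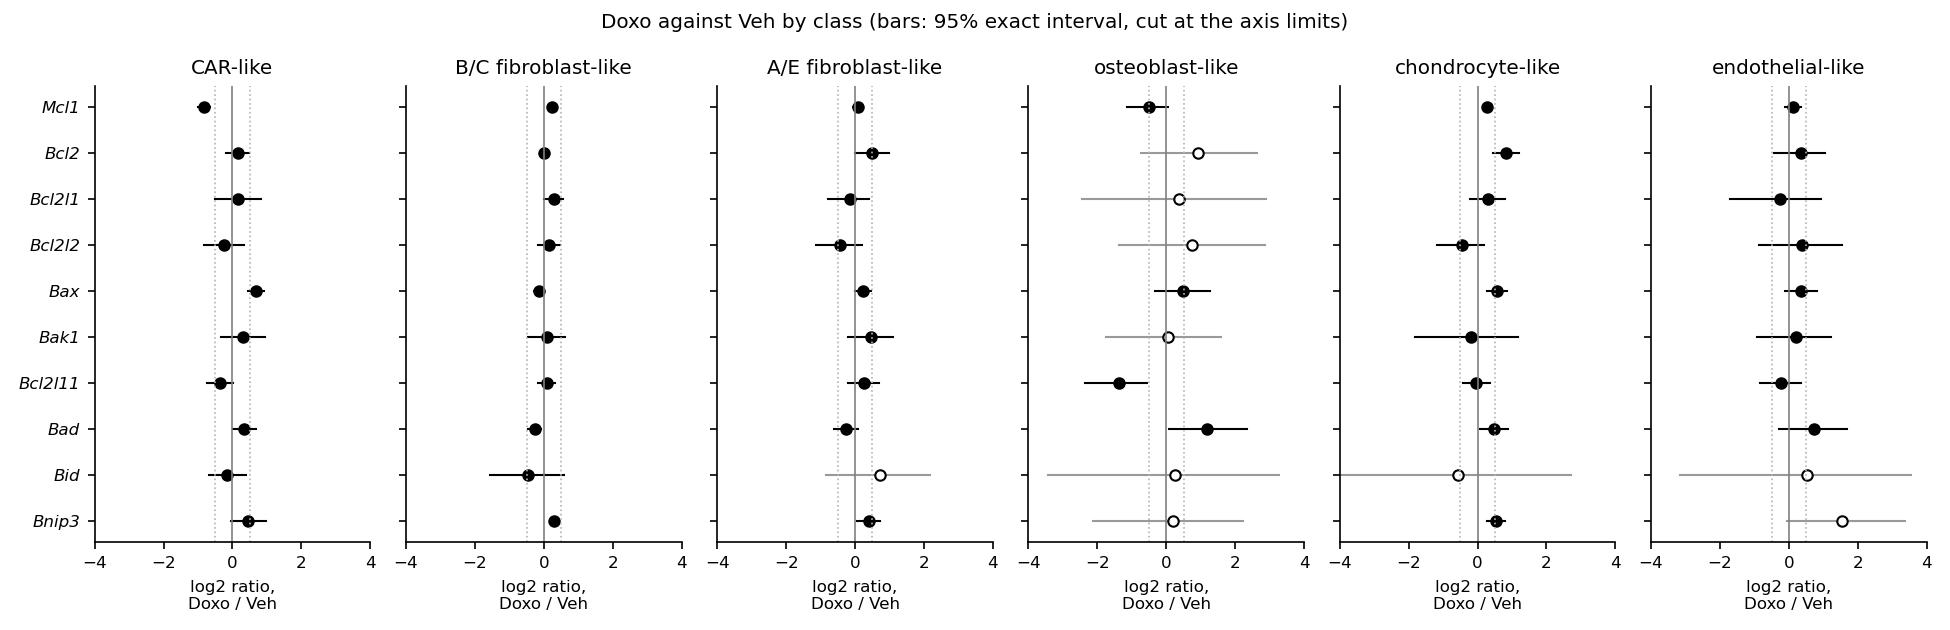
Log2 ratio of CPM, Doxo over Veh (x axis), of each member (y axis) in the 6 named classes, with 95% exact intervals. B/C and A/E stand for bone and cartilage and for arteriolar and endosteal, open points mark members with fewer than 20 UMIs in the class, and dotted lines mark 0.5 in each direction. Mcl1 lay at -0.82 and Bax at 0.68 in CAR-like cells, and no member lay past 0.5 in bone and cartilage fibroblast-like cells.

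Beside the 10, 14 other family genes were in the files. Of these, 6 reached 20 UMIs in CAR-like cells, all with a ratio above 0, and 3 were past 0.5 upwards and 0 downwards, against 16.5% and 12.1% of all genes of the class. Their median was 0.52 and that of all genes 0.06. The 3 were Bok, a BAX-like gene, counted 36 times in Veh and 94 times in Doxo (ratio 0.95), Bcl2l12 with 35 and 85 UMIs (0.84), and the BH3-only gene Bmf with 19 and 38 UMIs (0.56). The p53 target Bbc3, which encodes PUMA, was counted 50 and 94 times there (0.48), and 188 and 68 times in chondrocyte-like cells, where its ratio was -0.81. Pmaip1, which encodes NOXA, had between 0 and 9 UMIs in each named class and library. Bnip3l, the close relative of Bnip3, had 358 and 552 UMIs in CAR-like cells (0.20).

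Of the 16 genes of the caspase machinery downstream of the mitochondria, all 16 reached 20 UMIs in CAR-like cells, 3 were past 0.5 upwards and 1 downwards, near the 16.5% and 12.1% of all genes of the class. Casp9, the initiator caspase of this route, was counted 20 and 58 times (ratio 1.09) and Endog 43 and 99 times (0.77), while Birc3, of the inhibitor of apoptosis family, had 96 and 77 UMIs (-0.74). The median of the list was 0.18, and that of all genes 0.06. In the death receptor arm upstream of Bid, 5 of 6 genes could be read in CAR-like cells, with Fadd past 0.5 upwards (6 and 19 UMIs, 1.16) and Ripk1 past it downwards (240 and 223 UMIs, -0.53), which is 1 of 5 genes each way beside the same 16.5% and 12.1%.

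Of 15 p53 targets, 11 reached 20 UMIs in CAR-like cells, with 3 past 0.5 upwards and 1 downwards, against 16.5% and 12.1% of all genes. Their median was 0.44, where all genes had 0.06. Trp53inp1 was counted 48 and 138 times (1.09), Phlda3 233 and 659 times (1.07) and Zmat3 27 and 53 times (0.54). Sesn2 (59 and 47 UMIs, -0.75) went the other way, and the cell cycle inhibitor Cdkn1a had 808 and 985 UMIs (-0.14). In bone and cartilage fibroblast-like cells, where the Bax ratio was -0.14, the median of 14 such genes was -0.21, and 0 were past 0.5 upwards and 3 downwards, against 5.57% and 12% of all genes there, whose median was -0.09. In chondrocyte-like cells, where the Bax ratio was 0.56, it was -0.21 over 13 genes, with 3 upwards and 5 downwards, against 18.3% and 14.1% of all genes, whose median was 0.05. The 3 upwards were Trp53inp1 (1.40), Phlda3 (1.11) and Ccng1 (0.97). The 5 downwards were Perp (-2.43), Sesn2 (-0.98), Aen (-0.83), Bbc3 (-0.81) and Fas (-0.57).

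For members with at least 10 UMIs in every named class and library, the genes whose levels were most alike over these 12 values were sought among 1756 genes, by Pearson's r of log2(CPM + 1). Mcl1 was closest to Nfkbiz (r = 0.977), Clic4 (0.963) and Dynll1 (0.945). Nfkbiz encodes an inhibitor-like partner of NF-kB that is induced by inflammatory signals. Bax was closest to Ppp1ca (0.982), Uqcrb (0.970) and Rdx (0.952), Bcl2l11 to Bptf (0.975), Arid4a (0.937) and Spag9 (0.934), and Bad to Ndufs7 (0.919), Atp5o (0.913) and Psma4 (0.901), of which Ndufs7 and Atp5o serve mitochondrial respiration. The 12 values share their libraries and depth, so these r are a description. The other 6 members had too few UMIs in some class.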

How the data were processed

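Bone-resident cells of Veh and Doxo mice, 1 library each, were measured by droplet-based 3′ sequencing. The deposited values are log2 values per gene and cell that the authors had scaled per cell in 2 rounds. The submitters' processing notes name Cell Ranger, Partek, GRCm38 and mm10, and versions are not given in the sources used here. The scaling was inverted in each cell and gave whole UMIs (within 0.05) in 99.9% of entries above 0 and no higher than 50 UMIs. Of 27 symbols with values that were not whole, 0 are members.

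Both libraries were merged and clustered in Seurat 5.3.0 (R 4.3.3) with 2000 variable genes, 35 principal components and a resolution of 0.1, leaving family genes out of the variable genes. As in the methods of the study, cells below 200 or above 10000 genes, below 100 or above 100000 UMIs, or over 10% mitochondrial UMIs were to be left out, and all deposited cells passed. Each cluster took the name of the class for which most markers, and no fewer than 3, were seen in 10% or more of its cells and lay 1 log2 unit above all other cells. Doublets were kept. An alternative left out the 5% of cells with most UMIs in each class and library.

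UMIs were summed per class and library (Python 3.11.15, scipy 1.17.1), with exact Poisson intervals for CPM, exact binomial intervals for shares and for the balance, exact conditional intervals for log2 ratios (0.5 UMI added to each sum) and for differences in balance, all at 95%. A gene was called past the fold at a log2 ratio of 0.5 in either direction with at least 20 UMIs over both libraries. The scripts were tested on simulated data. All members are named. Genes most like a member were the 3 with the highest r, among genes with at least 20 UMIs in every named class and library. Other lists were counted whole, and the genes named from them were chosen after their values were seen. Some genes of these lists are not reported here by name. Members, markers and lists were chosen with earlier results of these data known. The balance of each library without the inflammatory sub-cluster was an alternative added after seeing the data, and the closing section names the other alternatives.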

Additional observations from a re-analysis of the deposited data

How the results depend on the processing

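The difference in balance of the CAR-like cells stayed below 0 under every alternative run, between -0.91 and -0.29, with its smallest sizes without Mcl1 (-0.29), without the inflammatory sub-cluster (-0.33, with a Veh balance of -0.21) and with the mean log2 CPM of members in place of sums (-0.40). Without Mcl1 the balances in Veh and Doxo were -1.58 and -1.87 in CAR-like, -1.17 and -1.15 in bone and cartilage fibroblast-like, -2.07 and -2.22 in arteriolar and endosteal fibroblast-like, -2.97 and -2.13 in osteoblast-like, -1.58 and -1.58 in chondrocyte-like, -1.60 and -1.65 in endothelial-like and -2.97 and -2.97 in unnamed cells, because Mcl1 gave most survival UMIs, and the difference was 0.022 in bone and cartilage fibroblast-like, 0.84 in osteoblast-like and -0.0016 in unnamed cells.

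Without Bnip3 the balances were 1.65 and 1.99 in bone and cartilage fibroblast-like (difference 0.34), 0.64 and 0.58 in arteriolar and endosteal fibroblast-like, 1.80 and 1.75 in chondrocyte-like and 0.57 and -0.13 in unnamed cells. With the mean log2 CPM, which weighs each member alike, they were 1.35 and 1.59 in bone and cartilage fibroblast-like (difference 0.24) and 1.48 and 1.59 in chondrocyte-like cells (difference 0.11), 0.58 in arteriolar and endosteal fibroblast-like Veh cells and -0.063 in CAR-like Doxo cells.

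With cells thinned to 2000 UMIs, balances were 0.23 in CAR-like, 0.96 in bone and cartilage fibroblast-like, 0.17 in arteriolar and endosteal fibroblast-like and 0.98 in chondrocyte-like Veh cells, and -1.78 in osteoblast-like, 0.72 in endothelial-like and -1.08 in unnamed Doxo cells. The differences were 0.034 in bone and cartilage fibroblast-like, 0.12 in arteriolar and endosteal fibroblast-like and -1.45 in osteoblast-like cells, and Bnip3 had a ratio of -0.13 in chondrocyte-like cells. The cause was not tested. With every cell weighing the same, the endothelial-like Doxo balance was 0.73. With cells put into classes one by one, balances were 0.67 and 0.82 in bone and cartilage fibroblast-like and 0.26 and 0.27 in osteoblast-like cells, and 0.19 in arteriolar and endosteal fibroblast-like Veh cells. Under the stricter cell filter Bad had a ratio of -0.19 in osteoblast-like cells.

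With a fold of 2, the counts past it were 0 upwards and 0 downwards in CAR-like, 1 downwards in osteoblast-like, 0 upwards in chondrocyte-like and in endothelial-like and 1 upwards in unnamed cells. With no minimum of UMIs they were 1 upwards in arteriolar and endosteal fibroblast-like, 3 upwards in osteoblast-like and in endothelial-like cells and 1 downwards in chondrocyte-like cells. Of the member ratios under the alternatives, which also took 20 principal components, 1 UMI added to each sum, centring on the median of all genes, family genes among the variable genes and no cells of the top 5% by UMIs, 602 stayed within the interval of the reported ratio. Of 630 such ratios, 59 had another sign than the reported one, and 2 of these, Bad and Bnip3 as above, belonged to ratios past 0.5. Counts under 20 UMIs leave wide intervals in osteoblast-like and endothelial-like cells. No paired analysis was possible because each group has 1 library.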
